A study of Mus musculus with 2 samples.

Results

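The 9 genes described here make up a small panel of glucocorticoid signalling in mouse small intestine: the receptor, enzymes that make or convert the hormone, and genes that the receptor is known to induce. They were chosen by name from the 27275 genes of the deposited expression table, and 9 of 9 were found there. All but Cyp11a1 reached 1 FPKM (reads scaled by gene length and library size) in the wild-type or the knockout library, and those 8 were compared. The data are 2 RNA-seq libraries from proximal small intestine of naive mice, with 1 library per genotype. The knockout library is labelled Spibfl/flVillin-Cre and the wild-type library Spib+Villin-Cre, so both genotype labels name the Cre transgene. Villin drives Cre in the intestinal epithelium, so that Spib, an ETS family transcription factor, is removed there and stays intact in immune and stromal cells. Whether each library holds tissue of several mice, and how old the mice were, the sources used here do not say.

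Glucocorticoids diffuse into cells and bind a cytoplasmic receptor that is held by heat shock proteins. The bound receptor moves to the nucleus, where it binds palindromic response elements and raises or lowers the transcription of its targets. In the gut the local supply of active hormone is also set by enzymes: 11-beta-hydroxysteroid dehydrogenase type 1 regenerates it, type 2 inactivates it, and the crypt epithelium can synthesize it from cholesterol.

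Replicates are lacking, so no test of genotype was made, and every difference below separates 1 library from 1 other. The implied depths were 17425640 reads for the wild type and 17658566 for the knockout. Intervals beside values are exact 95% intervals for counting error only, which treat each read as an independent molecule and leave out the variation between mice. Spib itself had 4.94 FPKM in the wild-type and 0.592 FPKM in the knockout library, from 247 and 30 reads, a direction that went with the labels. Enterocyte markers were high in both libraries, with a summed level of 12328 and 11275 FPKM over 11 genes. Of all 13479 genes compared, 1.61% were at least 2-fold higher and 2.51% at least 2-fold lower in the knockout library, 4.12% in all, on the log2 scale of FPKM + 1. Without antigen receptor genes the shares were 1.53% higher and 1.54% lower, with 203 and 204 genes in place of 217 and 338. The median log2 ratio over all 13479 compared genes was -0.05. A ratio of 0 ranked 7911 from the lowest, so most of all genes had ratios below 0.

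Response elements near the start sites are shown for Tat, which differed most between the libraries, and for Sgk1, the most abundant of the 9 genes. The element searched was the consensus palindrome, the 6-base arm AGAACA followed by any 3 bases and the arm TGTTCT, which reads the same on both strands apart from the spacer. The arms are each other's reverse complement. RefSeq promoter windows of build GRCm38.p6 matched 6 of the 9 genes, with 14 windows in all, and the 250 bases before each start were read. Capitals mark the element and single arms.
Tat, chr8:109990186-109990435, plus strand: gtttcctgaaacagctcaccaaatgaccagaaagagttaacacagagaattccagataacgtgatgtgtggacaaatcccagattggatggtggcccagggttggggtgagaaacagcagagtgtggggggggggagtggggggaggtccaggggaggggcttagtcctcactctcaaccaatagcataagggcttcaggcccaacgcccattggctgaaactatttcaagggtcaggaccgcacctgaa
Sgk1, chr10:21993640-21993889, plus strand: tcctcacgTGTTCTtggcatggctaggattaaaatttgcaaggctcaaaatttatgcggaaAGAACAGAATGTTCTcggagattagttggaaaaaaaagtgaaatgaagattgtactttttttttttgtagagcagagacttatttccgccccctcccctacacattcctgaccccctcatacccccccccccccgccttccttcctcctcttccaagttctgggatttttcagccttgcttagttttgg
The Sgk1 window holds the full element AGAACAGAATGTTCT, 189 to 175 bases before the start, at chr10:21993701-21993715, and a further single arm 242 bases before the start. This window precedes 1 of the 6 RefSeq starts of Sgk1 and overlaps no exon of GENCODE M21. Of all 32851 promoter windows, 3 hold the exact element, or 0.0091%. The Tat window holds neither the element nor an arm, and its best alignment has 5 mismatches among the 12 fixed letters. An arm occurs in 16.1% of all windows. Tat, Fkbp5, Tsc22d3, Hsd11b1 and Cyp11a1 had no exact element in the 250 bases of any of their windows. Sequence farther upstream or inside the genes was not searched, so these genes may hold elements there. With up to 2 mismatches allowed, 2 of the 14 windows matched, both of Sgk1, against 1.56% of all windows. These matches describe letters and not binding.

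Tat had far less RNA in the knockout library, and it was the only one of the 8 compared genes past 2-fold. The 7 others lay within 2-fold, with ratios on both sides of 1. Tat encodes tyrosine aminotransferase, the first enzyme of tyrosine breakdown and a classical glucocorticoid-induced gene of liver. The gene lies on the plus strand of chromosome 8, 109990437 to 109999803 (mm10), with 2405 bases of exon. The wild-type library held 334 reads of it, or 7.97 FPKM, and the knockout library 35 reads, or 0.824 FPKM. The counting intervals of these levels, 7.14 to 8.87 and 0.574 to 1.15 FPKM, do not overlap. Tat was thus 9.67-fold lower (6.82 to 14.1), with a log2 ratio of -2.30. Only 0.816% of the compared genes had a ratio as far from 0 in either direction. Tat was placed in the panel with its difference known, so the count of 1 in 8 beside 4.12% of all genes is a description.

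**Figure D1:**
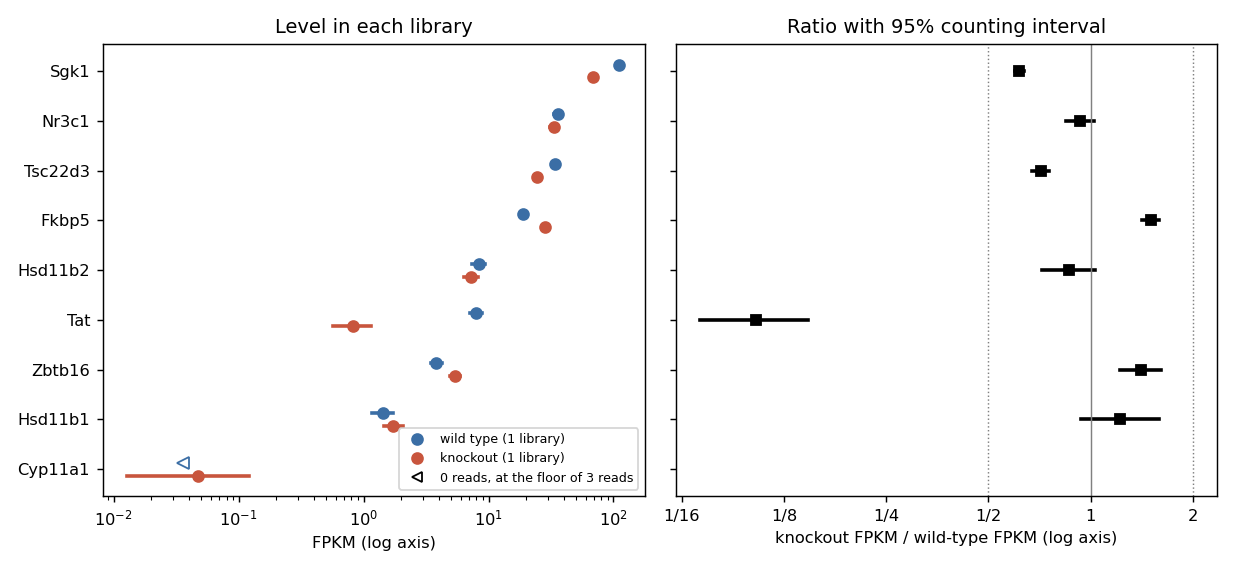
Left, FPKM of the 9 genes in the wild-type (blue) and knockout (red) library on a log axis, with bars for the 95% counting interval; the open triangle marks 0 reads, drawn at the floor of 3 reads. Right, the ratio of knockout to wild-type FPKM with its counting interval, with dotted lines at 2-fold. Tat, at 7.97 against 0.824 FPKM, lies beyond the dotted lines, and the other genes drawn at right lie between them.

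The receptor gene Nr3c1 was nearly equal in the libraries. It had 35.7 FPKM in the wild-type and 33.3 FPKM in the knockout library. That is 1.07-fold lower, with an interval of 0.977 to 1.18. The reads of Nr3c1, at least 923 and 872, could not be derived from the exon length of GENCODE M21. The interval rests on these smallest counts and is wider than the true counting error. Whether an interval from the true counts would include 1 is not known. Nr3c2, the mineralocorticoid receptor, which also binds glucocorticoids, had 11.8 and 10.8 FPKM, 1.09-fold lower (1.01 to 1.18). Scaling the libraries to an equal median moved its log2 ratio from -0.12 to -0.06. The interval was not taken at that scaling. The sex steroid receptor genes Esr1 and Pgr stayed below 1 FPKM in both libraries.

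Genes of hormone conversion and synthesis differed little or were barely detected. Hsd11b2, whose enzyme inactivates corticosterone, had 8.39 FPKM from 269 reads and 7.23 FPKM from 235 reads, 1.16-fold lower (0.970 to 1.39). Hsd11b1, whose enzyme regenerates the hormone, had 1.42 FPKM from 105 reads and 1.73 FPKM from 130 reads, 1.22-fold higher (0.937 to 1.60). Both intervals include 1, so a difference was not detectable at this depth. The enzyme of Hsd11b1 depends on H6pd for its cofactor, and H6pd had 8.13 and 7.33 FPKM.
Cyp11a1, which encodes the side-chain cleavage enzyme that starts steroid synthesis, had 0 reads in the wild-type and 4 in the knockout library, the latter 0.0472 FPKM. For the count of 0 in the wild-type library, the exact interval reaches 0.0441 FPKM, and the floor of 3 reads lies at 0.0358 FPKM. The exact interval of the ratio begins at 0.651 and so includes 1, and a difference was not detectable at this depth. Of 4 measured genes typical of the adrenal cortex, 3 stayed below 1 FPKM, among them Cyp11b1, for the last step of corticosterone synthesis, with 2 reads and 0 reads. The fourth was Star, which brings cholesterol into mitochondria, with 1.79 and 1.17 FPKM.

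The known receptor targets besides Tat went in opposite directions. Sgk1, a kinase that promotes sodium uptake, was the highest of the 9 in both libraries, with 110.5 FPKM in the wild type and 68.1 FPKM in the knockout. It was 1.62-fold lower (1.57 to 1.68), from 9440 and 5900 reads. Tsc22d3, also known as Gilz, an anti-inflammatory leucine zipper protein, had 34.1 FPKM from 2577 reads and 24.3 FPKM from 1860 reads. That is 1.404-fold lower (1.32 to 1.49). These 2 targets were lower by more than the counting error, and both stayed within 2-fold.
Fkbp5, a co-chaperone that lowers the receptor's affinity for hormone and is widely used as a readout of its activity, went the other way. Its level was 19.0 FPKM in the wild-type and 28.5 FPKM in the knockout library, 1.502-fold higher (1.42 to 1.59), from at least 2102 and 3199 reads. Zbtb16, a zinc finger factor induced by glucocorticoids in many tissues and also needed by some innate-like lymphocytes, had 3.82 FPKM from 352 reads and 5.37 FPKM from 501 reads. It was 1.405-fold higher (1.22 to 1.61). How often genes at large reach ratios of these sizes gives the scale. A log2 ratio as far from 0 as that of Sgk1, -0.69, was found in 7.18% of the compared genes. The share was 9.79% for Fkbp5 at 0.56, 12.8% for Tsc22d3 at -0.47, and 16.6% for Zbtb16 at 0.40.

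The order of levels within the panel was the same in its first 2 places and changed around Fkbp5 and Tat. In the wild-type library the order was Sgk1, Nr3c1, Tsc22d3, Fkbp5, Hsd11b2, Tat, Zbtb16, Hsd11b1 and Cyp11a1. Nr3c1 (33.4 to 38.0 FPKM, from its smallest counts) and Tsc22d3 (32.8 to 35.4 FPKM) overlapped in their counting intervals. Hsd11b2 (7.42 to 9.45 FPKM) and Tat overlapped too. In the knockout library Fkbp5 stood above Tsc22d3, with intervals of 27.5 to 29.5 and 23.2 to 25.4 FPKM. Tat there stood behind Zbtb16 and Hsd11b1, from rank 6 to rank 8 of 9.

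**Figure D2:**
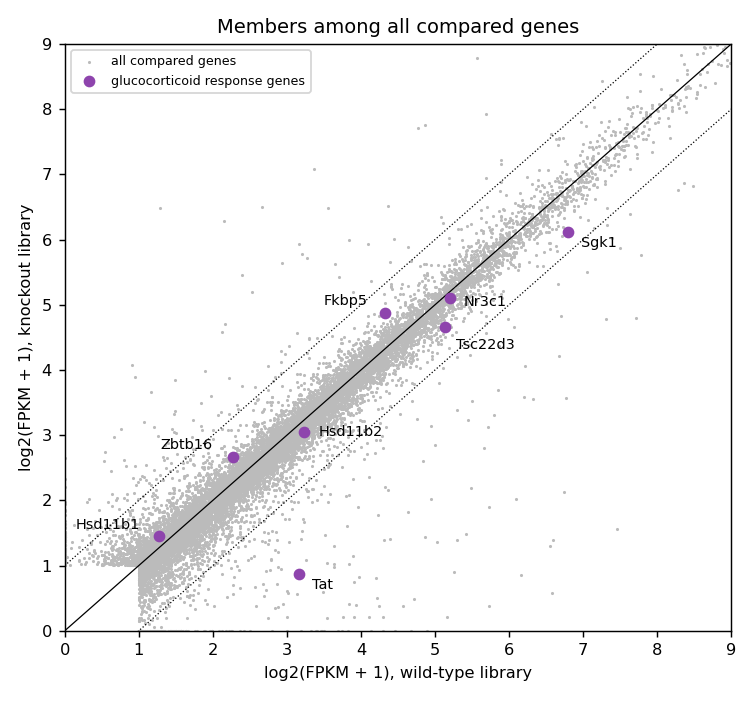
Each grey point is 1 of the 13479 compared genes, with log2(FPKM + 1) in the wild-type library on the horizontal and in the knockout library on the vertical axis, drawn up to 9 on both. The 8 compared panel genes are purple, the solid line marks equal levels and the dotted lines 2-fold; Tat lies below the lower dotted line and the others between the lines.

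A wider list of 34 genes that the receptor is known to induce was described in the same way. Of these 33 were measured and 32 compared, among them Fkbp5, Sgk1, Tsc22d3 and Zbtb16. None was at least 2-fold higher and 3 were at least 2-fold lower, beside 1.61% and 2.51% of all genes, and 29 lay within 2-fold. Their median log2 ratio was -0.07, close to the -0.05 of all compared genes, with 20 ratios below 0 and 12 above. Most of all compared genes had ratios below 0 as well. Among those that reached 5 FPKM in either library the median was -0.29. The median of all genes at that filter was not taken, so the -0.05 is no background for this value.
Cebpd, a transcription factor of the acute-phase response, had 11.0 FPKM in the wild-type and 3.28 FPKM in the knockout library, 3.35-fold lower (2.87 to 3.92). Map3k6, a stress-activated kinase, had 15.02 and 6.04 FPKM, 2.49-fold lower (2.24 to 2.77). Metallothionein Mt1, which binds zinc and copper, had 198 and 82.8 FPKM, 2.39-fold lower (2.27 to 2.53). With a pseudocount of 5 in place of 1, only Mt1 of these was past 2-fold.
Just inside the threshold was Nfkbia, the inhibitor of NF-kB, named here after its values were seen, at 50.7 and 25.4 FPKM and a log2 ratio of -0.97. By their mean over the libraries, the most abundant targets were Mt1, Cdkn1a and Txnip. The cell cycle inhibitor Cdkn1a had 114 and 112 FPKM, and Txnip, an inhibitor of thioredoxin, had 104 and 101 FPKM. Targets above 0 included the Krüppel-like factor gene Klf9, which had 25.5 and 33.4 FPKM, and Pdk4, a brake on pyruvate oxidation, with 3.35 and 5.02 FPKM; both were also named after their values were seen.

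**Figure D3:**
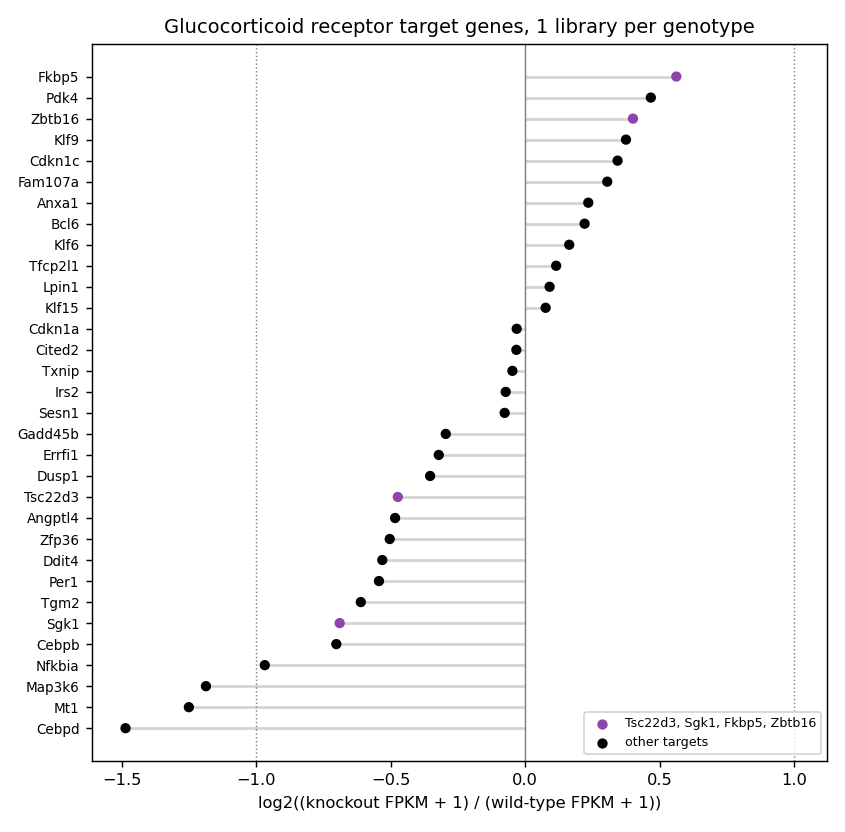
Log2 ratio of knockout to wild-type FPKM, each plus 1, for the 32 compared receptor targets, sorted, with the panel genes among them in purple and dotted lines at 2-fold. Cebpd, Mt1 and Map3k6 lie beyond the lower line, none lies beyond the upper one, and Fkbp5 has the highest ratio at 0.56 while Sgk1 lies at -0.69.

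Markers of immune and tuft cells, and a few of secretory cells, differed between the same libraries. In the knockout library 2 of 9 compared B cell markers, 5 of 10 plasma cell markers and 3 of 11 T and innate lymphoid markers were at least 2-fold lower, beside 2.51% of all genes, and none was 2-fold higher. Their summed levels were 31.1 and 11.7 FPKM for B cells, 2028 and 565 for plasma cells, and 54.7 and 21.1 for T and innate lymphoid cells. Most of the plasma cell sum came from Igkc, with 1040 and 213 FPKM, and Igha, with 655 and 151 FPKM. Of the plasma cell markers 2 had ratios above 0, among them Iglc1, named here after its values were seen. Iglc1 had 20.2 FPKM in the wild-type and 38.0 FPKM in the knockout library. Tsc22d3, which lymphocytes express, was lower in the same library, while Zbtb16 was higher. Macrophage and dendritic cell markers summed to 228 and 159 FPKM, with none of 11 past 2-fold. All 6 compared tuft cell markers were past 2-fold towards the knockout library, beside 1.61% of all genes, and the 7 measured summed to 9.13 and 49.8 FPKM. Of Paneth cell markers 1 of 6 was 2-fold higher, and of goblet cell markers 2 of 7, with none 2-fold lower. The median log2 ratios were 0.39 for Paneth and 0.05 for goblet cell markers, with 2 ratios below 0 in each list. Immediate early genes, several of which tissue handling can induce, numbered 18, with a median log2 ratio of -0.28. None was past 2-fold, near the 4.12% of all genes. Of their ratios 12 were below 0, where most of all genes lay too. Fos had 64.3 and 48.4 FPKM, Klf4 had 93.8 and 98.3, and Klf6 had 59.0 and 66.3. The part of these groups in the ratios of the receptor targets was not tested. In whole tissue, fewer cells of a type and less RNA per cell cannot be told apart.

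Genes that glucocorticoids repress, most of them inflammatory, included 2 that were at least 2-fold lower in the knockout library. Of 20 measured, 10 were compared, and none was 2-fold higher. All genes had shares of 2.51% lower and 1.61% higher, so 0 of 10 higher is near the background. Their median was -0.38, with 7 ratios below 0, the side on which most of all genes lay. With all 20 genes included the median was -0.19, and over the few that reached 5 FPKM it was -0.73. That last value is the ratio of Pla2g2a alone, the middle gene of those few, which is also on the Paneth cell marker list. Nos2, the inducible nitric oxide synthase, had 28.1 and 1.72 FPKM, and the T cell chemokine Ccl5 had 16.2 and 4.13 FPKM. The secreted phospholipase Pla2g2a had 48.2 and 28.6 FPKM, and the interferon-induced factor Irf1 had 39.5 and 29.9 FPKM.

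Genes of the machinery around the receptor lay within 2-fold. Of 15 genes for chaperones and nuclear import, none was past 2-fold, near the background of 4.12% of all genes, and the median was -0.01. The heat shock protein genes Hspa8 and Hsp90ab1 had 387 against 393 and 303 against 292 FPKM, and Fkbp4, which competes with Fkbp5 on the receptor complex, had 103 and 102. The median of this list was 0.05 once the libraries were scaled to an equal median. Fkbp5 had the highest ratio of the 15. Of 15 coregulator genes none was past 2-fold, and the median was -0.06. The corepressor Ncor1 had 25.8 and 25.2 FPKM, Hexim1, an inhibitor of transcript elongation, had 22.4 and 21.7, and the chromatin remodelling ATPase Smarca4 had 18.3 and 15.6.

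Steroid synthesis and clearance genes lay within 2-fold, on the log2 scale of FPKM + 1. Of 14 synthesis genes measured, 8 were compared and none was past 2-fold, near the 4.12% of all genes. The median of these 8 was -0.01, and 0.04 at an equal median of the libraries. Their log2 ratios ran from -0.42 to 0.48, the highest that of Fdx1, the electron carrier of the side-chain cleavage enzyme, at 6.19 and 9.01 FPKM. Cyp17a1, which makes androgen precursors, had 0.609 and 1.098 FPKM, a plain ratio of 1.80 (1.06 to 3.14). Nr5a2, the nuclear receptor that drives steroid synthesis in crypts, had 12.3 and 10.5 FPKM, and the cholesterol-binding proteins Stard3 and Tspo had 14.8 against 10.8 and 34.7 against 32.9. For interconversion and clearance 18 of 19 genes were compared, none past 2-fold, again near the 4.12% of all genes, with a median of 0.07. Cyp3a13, a steroid-hydroxylating cytochrome, had 244 and 259 FPKM, and Hsd17b11 had 78.7 and 80.0. The efflux pump gene Abcb1a had 91.1 and 133 FPKM, 1.46-fold higher (1.42 to 1.496).

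Of the clock genes, whose rhythm is coupled to that of the hormone, none of 18 was past 2-fold, near the 4.12% of all genes. Their median was 0.01. The clock repressors Nr1d1 and Nr1d2 had 36.4 against 38.5 and 28.2 against 31.1 FPKM, and Bhlhe40 had 16.2 and 25.5. Per1, a clock gene that is also a direct receptor target, had 11.8 and 7.81 FPKM, 1.52-fold lower (1.38 to 1.66). The sources used here do not give the hour of tissue collection.

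**Figure D4:**
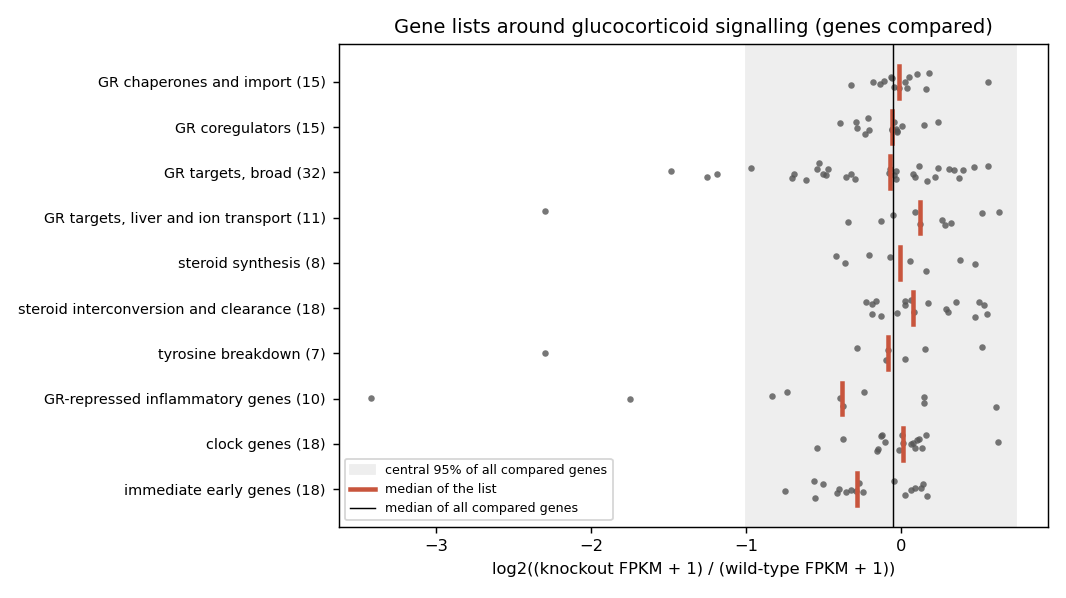
Each point is a compared gene of the list named at left (number of genes in brackets; GR stands for glucocorticoid receptor), placed by its log2 ratio, with the list's median as a red bar. The grey band holds the central 95% of all 13479 compared genes, from -1.0 to 0.74, and the black line their median of -0.05; Tat is the point at -2.30 in both lists that hold it.

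Tat, which was placed in the panel with its difference known, was the only compared gene of tyrosine breakdown past 2-fold. Besides Tat, 6 of the tyrosine breakdown genes were compared, with a median of -0.03. None of these was past 2-fold, which is near the 4.12% of all genes. Got1, an aminotransferase that also accepts tyrosine, had 40.5 and 58.4 FPKM, 1.44-fold higher (1.36 to 1.53). Mif, which also has tautomerase activity, had 36.7 and 29.9 FPKM, and Qdpr had 13.8 and 14.03. Hpd, the next enzyme after Tat, had 8.55 and 9.61 FPKM, 1.12-fold higher (0.964 to 1.31).
Of 11 compared genes of liver metabolism and ion transport that the receptor is known to induce, Tat was the only one past 2-fold. Over all genes the share was 4.12%. The median was 0.12 with Tat and 0.19 without it. The sodium pump subunit Atp1b1 had 613 and 667 FPKM. The glucose carrier Slc5a1 had 866 and 1041 FPKM.
Of 10 hepatocyte markers, 7 stayed below 1 FPKM in both libraries and 3 were compared, none past 2-fold on the log2 scale. The list summed to 11.3 and 12.7 FPKM, most of it from Hpd. Alb, for serum albumin, had 5 reads and 0 reads, and Fga and Ahsg had 0 in both. Apoh, a plasma glycoprotein, had 0.576 FPKM from 16 reads and 1.78 FPKM from 50 reads, and Ttr had 1.51 and 1.02 FPKM. Of the 3 compared markers, 1 ratio was below 0 and 2 were above. Of the 10 measured, 2 had no reads in the wild-type library and 4 had none in the knockout library.

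Around Tat on chromosome 8, 12 other genes lie at least in part within 150 kb, and 7 of them were compared. Of all compared genes, 4.12% were past 2-fold. Among these 7 neighbours only Chst4, which encodes a carbohydrate sulfotransferase and lies 29.35 kb beyond the end of Tat, was past 2-fold. It had 18.2 FPKM from 724 reads and 8.11 FPKM from 327 reads, 2.24-fold lower (1.97 to 2.56). The unnamed locus 8030455M16Rik, 47.6 kb beyond Tat and below the filter of 1 FPKM, had 13 reads in the wild-type and 0 in the knockout library. On the other side of Tat, Marveld3, a tight junction protein, had 25.1 and 21.8 FPKM, and the phosphatase gene Phlpp2 had 23.6 and 23.6 FPKM. The neighbours were looked at after the values of Tat were known.

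**Figure D5:**
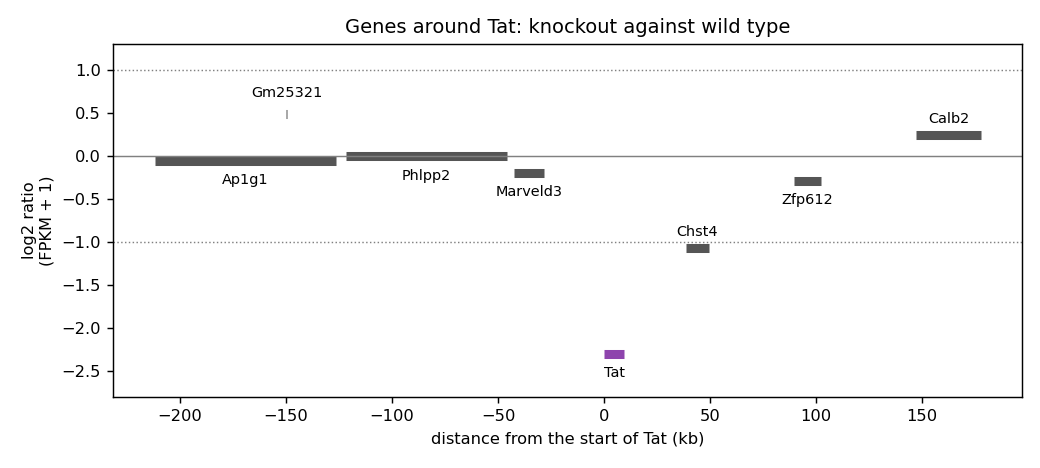
Bars show the extent of the compared genes around Tat as distance from its start in kb (horizontal) and their log2 ratio of knockout to wild type (vertical), with dotted lines at 2-fold. Tat at -2.30 and Chst4 at -1.08 lie below the lower dotted line, and the other 6 genes between the lines.

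The genes closest to Tat by their levels in the 2 libraries were Mal, Reg3d, Chac1, Pla2g5 and Ptprcap. Likeness was the distance between points of log2(FPKM + 1), over genes that reached 5 FPKM in either library, and 2 libraries allow no more than a description. Mal, a membrane raft protein, was nearest at a distance of 0.31, with 6.36 and 0.978 FPKM. Reg3d, a lectin of the Reg3 family, followed at 0.33 with 6.31 and 0.652 FPKM. Chac1, which degrades glutathione, lay at 0.44, the secreted phospholipase Pla2g5 at 0.51, and Ptprcap, a lymphocyte protein bound to CD45, at 0.54.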

How the data were processed

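The deposited table gives FPKM values for 27275 genes, 1 column per library, which the authors scaled by gene length and library size, as the table is named. Per the labels' protocols, RNA was taken up in TRIzol and cDNA was amplified by SMART-SeqII. The submitters' processing notes name Bowtie2 2.2.3, HTSeq 0.6.0 and build mm10 but not their roles. Strand and annotation release are not stated in those notes or the labels, so reads of overlapping or near-identical genes cannot be told apart.

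Columns were matched to libraries by title. Genes reaching 1 FPKM in either library were compared by the log2 ratio of knockout to wild-type FPKM after adding a pseudocount of 1 to each. This scale understates differences of low genes. A gene past 2-fold on it is called higher or lower. Folds are plain FPKM ratios. Whole reads were recovered from FPKM times exon length in GENCODE M21 (in both libraries 90.5% of nonzero values were whole, to within 0.01). They served for precision only, with Clopper-Pearson intervals for folds and exact Poisson intervals for levels. For Nr3c1 and Fkbp5 of the panel the smallest whole pair with the observed ratio was used. Recovery was tested on data simulated with the same exon lengths. That test could not show the effect of a different annotation, which is unknown here. Python 3.11.15, numpy 2.4.6, pandas 2.3.3, scipy 1.17.1 and matplotlib 3.10.9 were used.

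The panel, 11 pathway lists and 15 cell marker lists were chosen with earlier results of these data known. Of the pathway genes, 180 of 188 were measured, and the others were not analysed here. Named genes are the panel, list genes past 2-fold, the 3 most abundant of most lists, partner enzymes, and the 5 genes closest to Tat; exceptions are named in the text or are Hpd, Per1, Star, Fdx1, Cyp17a1, Apoh, Ttr, Alb, Fga, Ahsg, Cyp11b1, Esr1 and Pgr, likewise chosen after their values were seen. Alternatives were other pseudocounts, filters and scalings.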

Additional observations from a re-analysis of the deposited data

How the results depend on the processing

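Tat was the only panel gene past 2-fold with pseudocounts of 0.1 and 5 and with both rescalings of the knockout library. A pseudocount of 0.1 gave it a log2 ratio of -3.13, and adding 5 gave -1.16. All 36 panel ratios under these alternatives kept their sign, which is no check of direction. A change of pseudocount cannot alter a sign. The rescalings were small beside the negative panel ratio nearest 0, that of Nr3c1 at -0.098. Scaling to an equal median or to an equal 75th percentile moved the median of all genes by 0.05 and 0.04.

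The count of genes past 2-fold was 555, with 217 higher and 338 lower. It was 930 (355 and 575) with a pseudocount of 0.1, 183 (61 and 122) when 5 was added, and 290 (97 and 193) with a filter of 5 FPKM. Alternatives chosen after seeing the data were leaving out antigen receptor genes, with 203 higher and 204 lower, and protein-coding genes only, with 194 (97 and 97). These moved the share of higher genes among those past 2-fold from 39.1% to 49.9% and 50%, the smaller set of genes being their construction. The coregulator median of -0.06 was -0.0083 and -0.018 under the 2 scalings. The median of the other steroid receptors, -0.12 from Nr3c2 alone, was -0.0028 without a filter. Of all pathway genes, 6 were past 2-fold, 7 with a pseudocount of 0.1 and 4 with 5. The list of known targets had 1 gene past 2-fold in place of 3 with a pseudocount of 5. With a filter of 5 FPKM its median was -0.29, that of steroid synthesis was -0.14, and that of repressed inflammatory genes was -0.73. This last median is the ratio of Pla2g2a alone. The median of all genes at that filter was not taken. No paired analysis was possible because each genotype has 1 library, and none could be left out. Depth limits the Hsd11b1 values, which rest on 105 and 130 reads, and those of Cyp11a1, on 0 and 4 reads.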
